A study of Mus musculus with 12 samples.

Results

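Matrix metalloproteinases and their tissue inhibitors were followed in aortic RNA of mice given BAPN + AngII, a challenge that leads to aortic dissection. The members were 10 genes, namely the stromelysin Mmp3, the gelatinases Mmp2 and Mmp9, the macrophage elastase Mmp12, the collagenase Mmp13, the membrane-type enzyme Mmp14, Mmp19, and the inhibitors Timp1, Timp2 and Timp3. They were found as the probes that carry their names in the array files. This gave 12 of 55681 probes, and 8 of the 10 genes could be tested among 22769 tested genes. Mmp12 and Mmp13 could not, because none of their probes exceeded the limit for well above background on all 3 arrays of a group.

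Matrix metalloproteinases are zinc-dependent enzymes that cut collagen, elastin, proteoglycans and other proteins around cells. Most are secreted as inactive precursors and are switched on by other proteases, while tissue inhibitors of metalloproteinases bind the active enzymes and block them. In the aortic wall this balance governs how elastic layers and collagen are broken down and rebuilt, and transcript levels do not report the activity of the enzymes.

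All mice were male, of the strain given as 129S5/SvEvBrd, C57BL6 and SJL, and homozygous for the floxed Socs3 allele (Socs3fl/fl). Their age, 11 to 14 weeks, is taken from the methods of a paper that combined these arrays with its own. Mice labelled smSocs3-KO also carried SM22-Cre, a Cre recombinase driven by the smooth muscle SM22 promoter, and their littermates without Cre served as WT. Socs3 is a feedback inhibitor of cytokine signalling through Stat3. Both genotypes were taken before challenge or after 3 days of BAPN at 150 mg/kg/day, which blocks lysyl oxidase and with it the crosslinking of elastic fibres and collagen, together with the pressor hormone AngII at 1000 ng/kg/min. Each of the 4 groups had 3 one-colour microarrays. The methods describe infusion from implanted minipumps, and none of the 4 groups had pumps without BAPN and AngII. Effects of the drugs and of pump implantation therefore cannot be told apart, and challenge here means both. Whether every array came from a separate animal is not given in the sources used here, so p-values measure the spread between these samples. In whole aortic tissue, fewer cells of a type and less RNA per cell cannot be told apart.

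Between 55.4% and 61.2% of spots were well above background on an array and 0 spots were saturated. All 6 WT arrays and smSocs3-KO before challenge replicate 1 had 1 scan date in the file headers (7 arrays). The other 5 arrays labelled smSocs3-KO had another. Arrays that share a scan date are called a slide here, and slide and genotype cannot be told apart at day 3. WT day 3 replicate 4 stood apart from the other day 3 WT arrays, and the calls of members that turn on it are given with and without it. So are the averaged calls of list genes named here. For calls of list genes within genotypes mostly counts are given, and single genes among them also turn on this array. Socs3 itself was not lower under the smSocs3-KO label, with a log2 difference from WT of 0.49 before challenge and 1.52 at day 3 (limma, adjusted p = 1 and 0.208), so directions between genotypes are those of the labels. Whether the Socs3 probe lies in the floxed part of the gene is not given in the sources used here. Smooth muscle markers were present on all arrays, and their summed level, as linear signal relative to the 75th percentile of the array, was 2690 to 2980 before and 2110 to 2660 after challenge in WT. In smSocs3-KO the corresponding ranges were 2380 to 3570 and 1710 to 2030.

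Upstream sequences are shown for 4 members whose levels or detection are described below, to show where the short motifs searched for in these genes lie. They come from RefSeq on GRCm38.p6, cover the 80 bases before the annotated start site, and are written 5′ to 3′ on the strand of the gene. Capitals mark matches, on either strand, to the AP-1 motif TGANTCA, which the AP-1 transcription factors bind. They also mark the letters TATAAA of a box that places the start of transcription, and those of the GC box, which is GGGCGG and is bound by Sp1.
Mmp3, chr9:7445742-7445821, plus strand: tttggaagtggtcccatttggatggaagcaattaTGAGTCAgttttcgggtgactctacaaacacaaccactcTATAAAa
Mmp13, chr9:7272434-7272513, plus strand: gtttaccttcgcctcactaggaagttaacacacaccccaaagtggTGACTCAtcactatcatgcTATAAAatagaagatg
Timp1, chrX:20870086-20870165, plus strand: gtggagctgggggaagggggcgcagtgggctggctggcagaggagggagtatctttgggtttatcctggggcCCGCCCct
Timp2, chr11:118355412-118355491, minus strand: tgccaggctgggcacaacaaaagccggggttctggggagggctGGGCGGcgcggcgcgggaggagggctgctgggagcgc

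Windows were found for 7 of the 10 members, and Mmp2, Mmp9 and Mmp19 had no entry. In the 250 bases before the start site, Mmp3 held an AP-1 match whose first base lay at -46 and the letters TATAAA at -7. Mmp13 held both, at -35 and -16. Whether these letters act as a TATA box at these distances from the annotated start was not tested. The second of the 2 Mmp12 start sites had an AP-1 match at -44 and the first had none. Timp1, Timp2, Timp3 and Mmp14 had GC boxes and neither of the other motifs, with first bases at -8 for Timp1, -37 for Timp2, -15 for Timp3 and -19 and -13 for Mmp14. The STAT motif TTCNNNGAA was not found in any of the 8 windows of the members. Of all 32851 RefSeq windows searched the same way on both strands, 6.75% held the AP-1 motif and 12.4% the letters TATAAA. The GC box was held by 32.7% and the STAT motif by 7.02%. No match overlapped a match to another motif in these windows. The upstream bases were 37.6% G or C for Mmp3 and 40.4% for Mmp13, against 54.4% for Timp1, 55.2% for Mmp14, 65.6% for Timp3 and 68% for Timp2, with a median of 52.4% over all windows. A match describes these letters and is not a measured binding site.

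Between the arrays before challenge and those of day 3, 4 of the 8 tested members changed when the responses of both genotypes were averaged. Timp1, Mmp3 and Mmp19 rose and Mmp9 fell, whereas Mmp2, Mmp14, Timp2 and Timp3 did not pass the test. The test was limma with all 4 groups in 1 model and p-values adjusted over all genes, and 22.7% of all genes passed in this comparison. In WT alone 3 members passed (Mmp3, Mmp19 and Timp1, all higher) beside 4.68% of all genes, and in smSocs3-KO alone 2 passed (Mmp3 and Timp1, both higher) beside 2.45%. The before and day 3 arrays did not overlap for 6 of the 8 members in WT, as for 35.3% of all genes, and for 5 of the 8 in smSocs3-KO, as for 28.1%. The 5 include Timp2, whose nearest smSocs3-KO arrays of the 2 time points were both at 8.017 when rounded.

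**Figure D1:**
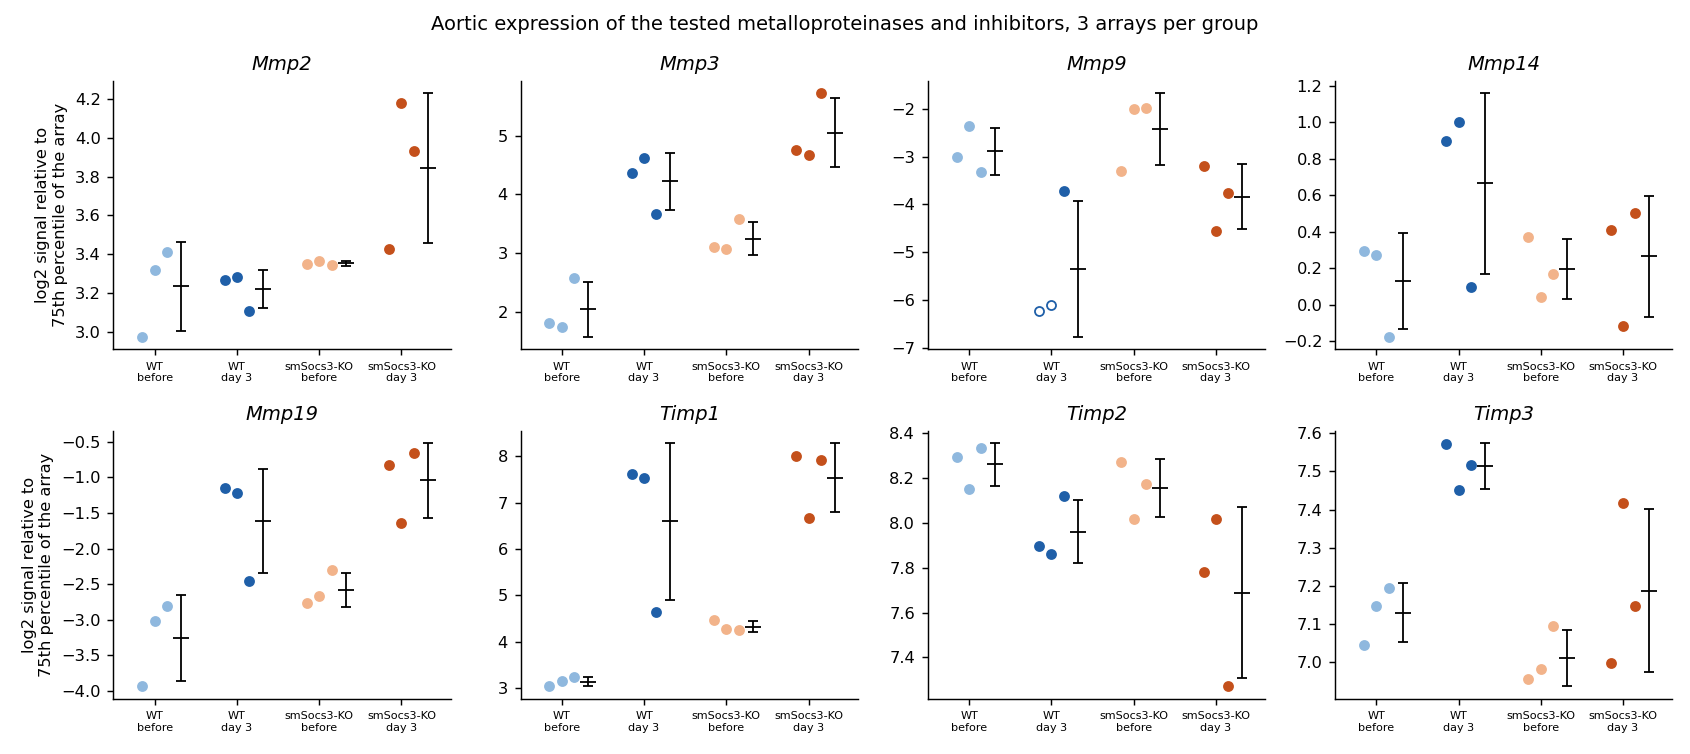
Log2 signal of the 8 tested members on each array, relative to the 75th percentile of the array, with the 4 groups on the x axis; points are arrays, open points lie below the limit for well above background, and the bar beside each group is the mean with its SD. The day 3 points of Mmp3, Mmp19 and Timp1 lie above the points before challenge within each genotype, and the 2 open points are Mmp9 in WT at day 3.

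The calls in single genotypes changed with single arrays. In WT, 0 members passed when WT before challenge replicate 1, 2 or 3, WT day 3 replicate 1 or 3, or smSocs3-KO before challenge replicate 4 was left out, and 0 to 3 of all 22769 genes passed in those fits. Without WT day 3 replicate 4, 5 members passed in WT (15.9% of all genes) and 3 in smSocs3-KO (8.42%). In smSocs3-KO, 0 members passed when WT before challenge replicate 1 or 2, smSocs3-KO before challenge replicate 1 or 3 or smSocs3-KO day 3 replicate 2 or 5 was left out, 1 passed without WT before challenge replicate 3 or smSocs3-KO before challenge replicate 4, and 0 passed with slide as a block (0.228% of all genes). The calls of Timp1, Mmp3, Mmp19 and Mmp9 on the averaged response held with each of the 12 arrays left out in turn.

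**Figure D2:**
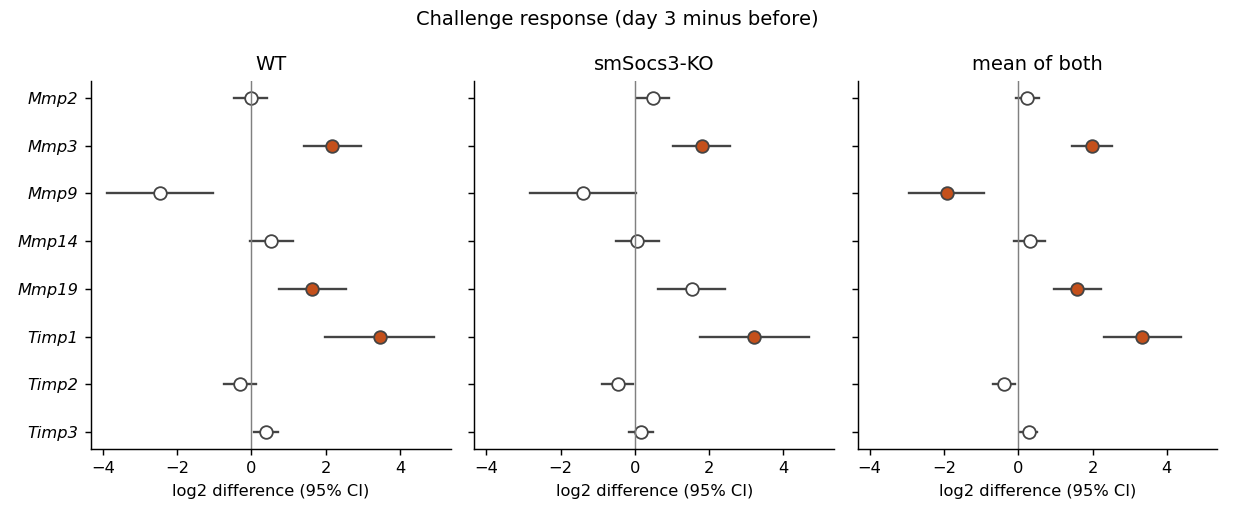
Log2 differences at day 3 against before challenge in WT, in smSocs3-KO and averaged over both, with 95% confidence intervals from the limma fit; filled points have an adjusted p under 0.05. Timp1 lies farthest to the right in each panel, at 3.46 in WT and 3.21 in smSocs3-KO, and Mmp9 lies to the left of 0 in each.

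Timp1, a secreted inhibitor of most soluble metalloproteinases, rose 10.1-fold on average. Its log2 signal in WT before challenge was 3.04, 3.15 and 3.23 in replicates 1, 2 and 3. The WT arrays of day 3 (replicates 1, 3 and 4) had values of 7.62, 7.52 and 4.64. In smSocs3-KO it was 4.46, 4.27 and 4.25 before challenge in replicates 1, 3 and 4 and 8.01, 6.68 and 7.92 at day 3 in replicates 2, 3 and 5. Every day 3 array lay above every array before challenge, and WT day 3 replicate 4, the lowest of them, lay 0.18 above the highest array before challenge. The log2 difference was 3.46 (SE 0.66, n = 3 against 3, limma, adjusted p = 0.033) in WT and 3.21 (SE 0.66, limma, adjusted p = 0.0388) in smSocs3-KO. The averaged difference was 3.33 (SE 0.47, limma, adjusted p = 0.00466). Without WT day 3 replicate 4 the WT difference was 4.43 (limma, adjusted p = 0.000199).

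Mmp3, or stromelysin-1, cuts proteoglycans, laminin and fibronectin and can activate other metalloproteinase precursors. Its log2 signal was 1.82, 1.74 and 2.59 in the WT arrays before challenge and 4.37, 4.62 and 3.68 at day 3. In smSocs3-KO it was 3.10, 3.07 and 3.58 before challenge and 4.76, 4.68 and 5.72 at day 3. The 4 groups did not overlap and stood in the order WT before challenge, smSocs3-KO before challenge, WT at day 3 and smSocs3-KO at day 3. The challenge response was 4.51-fold in WT (log2 2.17, SE 0.35, limma, adjusted p = 0.0304). In smSocs3-KO it was 3.49-fold (log2 1.80, SE 0.35, limma, adjusted p = 0.0341), and with slide as a block the log2 difference was 1.73 and did not pass (limma, adjusted p = 0.109). The averaged response was 3.97-fold (log2 1.99, SE 0.25, limma, adjusted p = 0.00386).

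Mmp19, a secreted enzyme that cuts basement membrane proteins, rose 3.01-fold on average (log2 1.59, SE 0.29, limma, adjusted p = 0.00756). It still passed but was 0.91 on the log2 scale when normexp correction was combined with quantile normalization. Its log2 signal was -3.94, -3.01 and -2.80 in WT before challenge and -1.15, -1.22 and -2.45 in WT at day 3. In smSocs3-KO the arrays before challenge stood at -2.76, -2.66 and -2.31 and those of day 3 at -0.82, -1.64 and -0.66. The arrays of the 2 time points did not overlap within either genotype, and WT day 3 replicate 4 was again the lowest day 3 array. The WT response was 3.12-fold (log2 1.64, SE 0.41, limma, adjusted p = 0.0476), and the smSocs3-KO response of 2.89-fold (log2 1.53) did not pass (limma, adjusted p = 0.0696). Without WT day 3 replicate 4 the smSocs3-KO response passed (limma, adjusted p = 0.0229). The WT call was kept in 7 of 23 alternatives and lost in 16, among them quantile normalization and the values the authors normalized. All 12 arrays measured Mmp19 well above background, and its signal lay below the 75th percentile of the array on each.

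Across the 12 arrays, Mmp3, Mmp19 and Timp1 varied together, with Pearson's r of 0.94 between Mmp3 and Mmp19, 0.93 between Mmp3 and Timp1 and 0.96 between Mmp19 and Timp1. These points share the groups that set the levels apart. After the group means were subtracted, the same pairs had r of 0.75, 0.59 and 0.81, and without WT day 3 replicate 4 they had 0.64, 0.37 and 0.66. These are descriptions of 12 or 11 arrays.

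Mmp9, or gelatinase B, cuts denatured collagen, basement membrane collagen and elastin, and neutrophils and macrophages carry it. It fell 3.81-fold on average (log2 difference -1.93, SE 0.46, limma, adjusted p = 0.0161), and the arrays of the 2 time points overlapped in smSocs3-KO. The probe was printed 10 times on each array. Its mean log2 signal was -3.003, -2.35 and -3.32 in WT before challenge, with every usable spot well above background. At day 3 WT replicates 1 and 3 stood at -6.22 and -6.10 with 0 of 10 spots well above background each, and replicate 4 at -3.72 with 9 of 10. Mmp9 was therefore measured on 1 of 3 WT arrays at day 3, and the fold change in WT depends on values at the background.

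In smSocs3-KO the Mmp9 signal was -3.30, -2.01 and -1.98 before challenge and -3.20, -4.55 and -3.77 at day 3, and 10, 6 and 9 of 10 spots were well above background at day 3. The WT log2 difference of -2.45 (SE 0.65) did not pass (limma, adjusted p = 0.0546) but passed without WT day 3 replicate 4 (limma, adjusted p = 0.00282), when both WT arrays left at day 3 were at background and give no exact size for the change. The smSocs3-KO difference of -1.41 did not pass (limma, adjusted p = 0.214). The SD over the spots of an array ran from 0.12 to 0.54. With normexp background correction and quantile normalization, which adds an offset to dim signals, the averaged log2 difference was -0.50 and still passed.

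**Figure D3:**
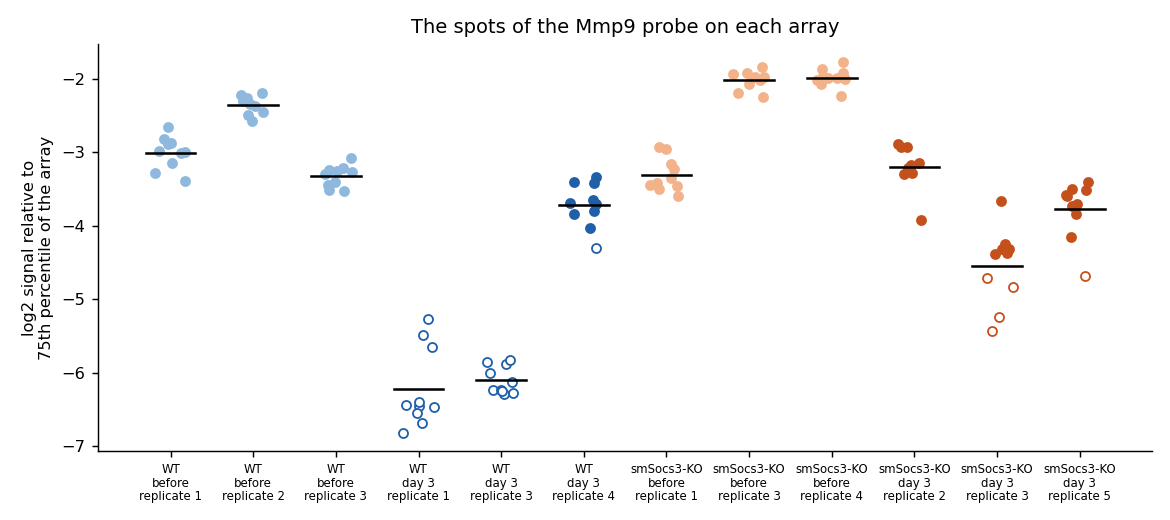
Log2 signal of each spot of the Mmp9 probe, relative to the 75th percentile of the array, on the 12 arrays; filled spots are well above background, open spots are not, and lines are array means. All 10 spots are open on WT day 3 replicates 1 and 3, at means of -6.22 and -6.10, and 9 of 10 are filled on replicate 4.

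Mmp2, or gelatinase A, is made by smooth muscle cells and fibroblasts and is activated at the cell surface by Mmp14 with Timp2. Its log2 signal was 2.98, 3.32 and 3.41 in WT before challenge and 3.27, 3.28 and 3.11 at day 3. In smSocs3-KO it was 3.35, 3.37 and 3.34 before challenge and 3.42, 4.18 and 3.93 at day 3. The WT arrays of both time points overlapped and the smSocs3-KO arrays did not. The log2 difference was -0.02 in WT (95% CI -0.46 to 0.42, limma, adjusted p = 0.967) and 0.49 in smSocs3-KO (95% CI 0.05 to 0.93, limma, adjusted p = 0.173). Neither passed.

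Mmp14, the membrane-type enzyme that activates Mmp2, was 0.29, 0.27 and -0.18 in WT before challenge and 0.90, 1 and 0.10 at day 3 on the log2 scale. In smSocs3-KO it was 0.37, 0.04 and 0.17 before challenge and 0.41, -0.12 and 0.50 at day 3. The log2 difference of 0.54 in WT did not pass (limma, adjusted p = 0.223), and without WT day 3 replicate 4 it was 0.82 and passed (limma, adjusted p = 0.0383). The difference in smSocs3-KO was 0.07 (95% CI -0.51 to 0.65), with overlapping arrays.

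Timp3, the inhibitor that binds to the extracellular matrix, ran from 7.04 to 7.20 in WT before challenge and from 7.45 to 7.57 at day 3 on the log2 scale. The WT groups did not overlap, and the log2 difference of 0.39 did not pass (limma, adjusted p = 0.128). In smSocs3-KO the arrays ran from 6.96 to 7.10 before challenge and from 6.998 to 7.42 at day 3 and overlapped (log2 difference 0.18, 95% CI -0.15 to 0.50). The averaged difference was 0.28 (limma, adjusted p = 0.0713).

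Timp2, the inhibitor that also takes part in the activation of Mmp2, had 2 probes whose averaged log2 differences had opposite signs, although neither passed. The brighter probe covers bases 2791 to 2850 of the transcript named in the array files (mm9, chr11:118163146-118163205). The dimmer one covers bases 652 to 711, and its genomic interval on mm9 is 6778 bases wide (chr11:118171964-118178741), so its 60 bases lie in separate pieces of the gene. The letters of the dimmer probe are shown because its difference had the opposite sign to that of the probe that stands for Timp2 in the fit.
Timp2 dimmer probe: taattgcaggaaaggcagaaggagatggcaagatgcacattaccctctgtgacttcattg

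The log2 signal of the brighter Timp2 probe was 8.30, 8.15 and 8.34 in WT before challenge and 7.90, 7.86 and 8.12 at day 3. In smSocs3-KO it was 8.27, 8.02 and 8.17 before challenge and 7.78, 8.02 and 7.27 at day 3. The dimmer probe was 4.35, 4.38 and 4.58 in WT before challenge and 4.86, 4.76 and 4.89 at day 3, and in smSocs3-KO 4.24, 4.53 and 4.52 before challenge and 4.82, 4.85 and 4.41 at day 3. The averaged log2 difference was -0.38 for the brighter probe (limma over all probes, adjusted p = 0.0696) and 0.33 for the dimmer one (limma over all probes, adjusted p = 0.0689).

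The signal of the dimmer Timp2 probe minus that of the brighter one, taken within each array, ran from -4.03 to -3.49 before challenge and from -3.23 to -2.87 at day 3, with no overlap over all 12 arrays. The change of this log2 ratio was 0.70 in WT and 0.73 in smSocs3-KO and 0.71 on average. This ratio was chosen after its values had been seen and is given as a description, with no test, and no direction is given for Timp2 as a gene.

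**Figure D4:**
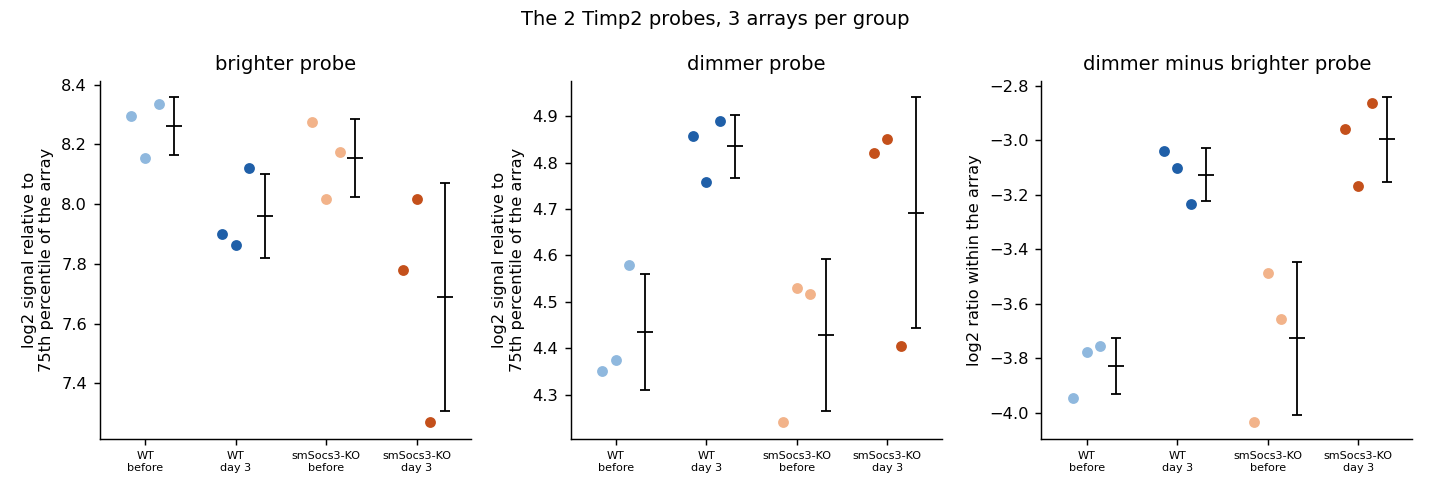
Log2 signal of the brighter and the dimmer Timp2 probe relative to the 75th percentile of the array, and their log2 ratio within the array, in the 4 groups; points are arrays and the bar beside each group is the mean with its SD. The ratio lies between -4.03 and -3.49 before challenge and between -3.23 and -2.87 at day 3.

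Mmp12 and Mmp13 were at or near the background. Of the 2 Mmp12 probes, 1 was well above background on 1 of 12 arrays (smSocs3-KO before challenge) and the other on 0 of 12. Mmp13 was well above background on 7 of 12 arrays, 2 of 3 in WT before challenge, WT at day 3 and smSocs3-KO at day 3 and 1 of 3 in smSocs3-KO before challenge. Its log2 signal ran from -5.78 to -3.28 on 11 arrays and was -1.48 on smSocs3-KO day 3 replicate 2. No change was detectable for Mmp13 with these arrays, and in a fit with no filter on dim probes its averaged log2 difference was 0.37 (limma, adjusted p = 0.71). In the same fit that of Mmp12 was -1.12 (limma, adjusted p = 0.0556), a value set by signals not well above background.

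The genotypes were then compared, which asks whether deletion of Socs3 in smooth muscle was accompanied by other levels of these genes. No member passed before challenge, where 0.0264% of all genes passed, or at day 3, where 1.11% passed. Unadjusted p-values under 0.05 were found for 1 of the 8 members before challenge, Mmp3, beside 4.4% of all genes. At day 3 they were found for 4 of the 8, with Mmp2, Mmp3 and Mmp9 higher and Timp3 lower in smSocs3-KO, beside 16.2% of all genes.

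**Figure D5:**
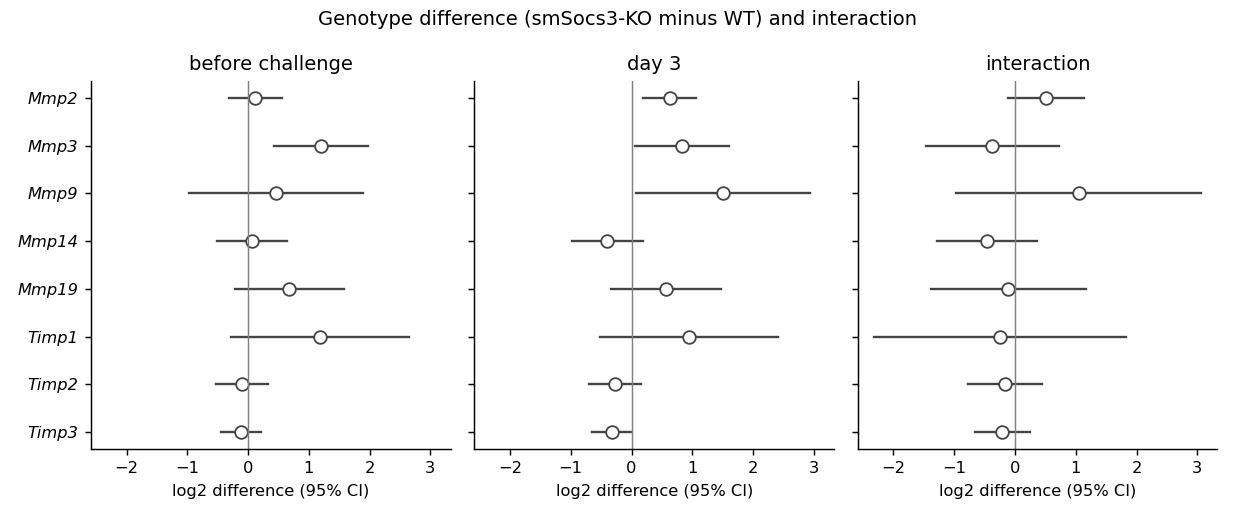
Log2 differences of smSocs3-KO minus WT before challenge and at day 3, and the difference between the 2 challenge responses (interaction), with 95% confidence intervals from the limma fit. No point is filled, since no adjusted p is under 0.05; the intervals of Mmp3 exclude 0 before challenge and at day 3.

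Before challenge Mmp3, Mmp19 and Timp1 were higher on every smSocs3-KO array than on any WT array. Non-overlapping groups were found for these 3 of the 8 members and for 11.1% of all genes. Mmp3 was 2.3-fold higher (log2 1.20, SE 0.35, limma, adjusted p = 0.724) and Timp1 2.28-fold (log2 1.19, SE 0.66, limma, adjusted p = 1). Mmp19 was 1.6-fold higher (log2 0.68, SE 0.41, limma, adjusted p = 1), and the nearest arrays of the 2 genotypes lay 0.04 apart.

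The smSocs3-KO array before challenge that shared the slide of the WT arrays, replicate 1, stood at 3.10 for Mmp3, above the 1.74 to 2.59 of the WT arrays. It stood at 4.46 for Timp1, above the WT range of 3.04 to 3.23, and at -3.30 for Mmp9, inside the WT range. With slide as a block, which leaves this 1 array to carry the genotype difference, the log2 difference was 1.06 for Mmp3 and 1.32 for Timp1. That for Mmp9 turned from 0.46 to -0.41. The markers of mesothelium differed by genotype label as well, with a summed level before challenge of 3.57 to 21 under the WT label and 25.2 to 57.4 under the other, and of 2.49 to 12.9 against 27.9 to 36.7 after it. Of these markers 0 of 4 passed in either comparison. Of 6 fibroblast markers 0 passed before challenge and 2 passed at day 3, both higher in smSocs3-KO, beside 1.11% of all genes. Slide and genotype cannot be told apart in that day 3 comparison. The part of mesothelial and fibroblast markers in the differences was not tested.

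At day 3 non-overlapping groups were found for 3 of the 8 members and for 20.5% of all genes. Mmp2 was 1.54-fold higher in smSocs3-KO (log2 0.63, SE 0.20, limma, adjusted p = 0.17). Mmp3 was 1.78-fold higher (log2 0.83, SE 0.35, limma, adjusted p = 0.275). Timp3 was 1.25-fold lower (log2 -0.33, SE 0.15, limma, adjusted p = 0.304).

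Mmp9 was higher by 1.51 on the log2 scale at day 3 (SE 0.65, limma, adjusted p = 0.284) with overlapping groups. It passed without WT day 3 replicate 4 (limma, adjusted p = 0.0385), when it was the 1 member to do so beside 2.7% of all genes. Both WT arrays left at day 3 then had 0 of 10 spots well above background, so that the size of the difference is not exact. With slide as a block the log2 difference was 0.20. For Timp1 the log2 difference at day 3 was 0.94 with all arrays and -0.04 without WT day 3 replicate 4, so the direction rested on that array. Slide and genotype cannot be told apart in all of these comparisons at day 3.

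The difference between the challenge responses of the 2 genotypes (the interaction) did not pass for any member. Here 0 of the 8 members and 0% of all genes passed in limma, and at an unadjusted p under 0.05 the counts were 0 of 8 and 5.34% of all genes. The interaction of Mmp2 was 0.51 on the log2 scale (95% CI -0.12 to 1.13). The interval for Timp1 ran from -2.32 to 1.83 and that for Mmp3 from -1.46 to 0.72.

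Mmp3, Mmp12 and Mmp13 belong to a row of metalloproteinase genes on chromosome 9, where 10 Mmp genes start within 420 kb on GRCm38.p6 (start sites from 7272514 for Mmp13 to 7692090 for Mmp7). Of these 10, Mmp3 and Mmp27 could be tested. Mmp1a, Mmp1b, Mmp7, Mmp10 and Mmp20 were well above background on 0 of 12 arrays, Mmp12 on 1, Mmp8 on 2 and Mmp13 on 7. Mmp27, whose start site lies at 7571396, had an averaged log2 difference of -0.91 (SE 0.30) that did not pass (limma, adjusted p = 0.0524), with -1.35 in WT (limma, adjusted p = 0.0831) and -0.47 in smSocs3-KO. Without WT day 3 replicate 4 it passed on average (log2 -1.06, limma, adjusted p = 0.028, beside 28.3% of all genes) and in WT (log2 -1.65, limma, adjusted p = 0.0359). Its values ran from -2.01 to -1.77 in WT before challenge and from -3.79 to -2.67 at day 3, whereas the smSocs3-KO groups overlapped.

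Of the other 17 genes of both families, 5 could be tested (Mmp11, Mmp17, Mmp23, Mmp27 and Timp4), and 0 passed in any of the 6 comparisons with all arrays in the fit. Their median averaged log2 difference was -0.50, against -0.05 over all genes tested. Timp4, the inhibitor found mainly in heart and vessels, was at -0.76 (SE 0.62, limma, adjusted p = 0.375), and its day 3 arrays ranged from -3.98 to -0.51 in WT. Mmp11 and Mmp23 had averaged log2 differences of -0.09 and 0.06.

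Genes that switch metalloproteinases on, carry them or block them formed a list of 22, of which 18 were tested. This list and those of substrates and transcription factors below were chosen with earlier results of these data known. Their shares are therefore descriptions. On average over both genotypes 9 rose and 1 fell, or 55.6% of those tested beside 22.7% of all genes, with a median log2 difference of 0.44 against -0.05 over all genes. The plasminogen system, which produces plasmin, an activator of several metalloproteinase precursors, was represented among those that rose by the urokinase gene Plau (log2 1.41), its receptor Plaur (1.57) and the tissue activator Plat (0.80), with limma adjusted p-values of 0.0165, 0.0126 and 0.0346. Members that act on the other side also rose, such as the protease inhibitor Tfpi2 (log2 2.25, limma, adjusted p = 0.00934) and thrombospondin-1, Thbs1, which binds metalloproteinases (log2 3.21, limma, adjusted p = 0.00732). Reck, a membrane-anchored inhibitor of metalloproteinases, was the 1 gene that fell (log2 -0.71, limma, adjusted p = 0.0413). With slide as a block, Reck and Plat did not pass (limma, adjusted p = 0.0522 and 0.0691).

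Within genotypes 3 of these 18 regulators rose in WT (Plau, Tfpi2 and Pcolce, the enhancer of procollagen processing) and 0 passed in smSocs3-KO, beside 4.68% and 2.45% of all genes, while their median log2 differences were 0.54 and 0.50. Without WT day 3 replicate 4, 8 rose and 1 fell in WT (15.9% of all genes passed) and 2 rose in smSocs3-KO (8.42%). Lcn2, a protein of neutrophils and stressed epithelia that forms a complex with Mmp9 and shields it from breakdown, was the 1 regulator to pass between genotypes with all arrays in the fit. It was 3.98 higher on the log2 scale in smSocs3-KO at day 3 (SE 0.71, limma, adjusted p = 0.0297) and 4.31 higher before challenge (limma, adjusted p = 0.133). With slide as a block the differences were 3.57 and 4.04. In that fit smSocs3-KO before challenge replicate 1 alone links the genotypes, so it cannot decide whether the call holds. Without WT day 3 replicate 4 Lcn2 passed before challenge as well (limma, adjusted p = 0.0419, beside 0.0395% of all genes), and Spock2, a matrix proteoglycan, passed at day 3. Its log2 difference there was 1.75 (limma, adjusted p = 0.0158), against 1.31 with all arrays (limma, adjusted p = 0.114).

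Metalloproteinase substrates of the vessel wall, a list of 21 genes that were all tested, rose in 11 cases and fell in 0 on average, or 52.4% beside 22.7% of all genes, with a median log2 difference of 0.52. The largest change was that of osteopontin, Spp1 (log2 4.94, SE 0.83, limma, adjusted p = 0.00661). Elastin, Eln, rose by 1.08 (limma, adjusted p = 0.0163), fibrillin-1, Fbn1, by 0.95 (adjusted p = 0.00677) and versican, Vcan, by 1.05 (adjusted p = 0.0121). Fibronectin, Fn1, rose by 0.78 (limma, adjusted p = 0.00834), and collagen genes that rose were Col5a1 (0.76), Col3a1 (0.61), Col1a1 (0.52) and Col4a2 (0.29). Col4a2 (limma, adjusted p = 0.046) did not pass without WT day 3 replicate 4 (limma, adjusted p = 0.0628) or with slide as a block (limma, adjusted p = 0.0527). In WT alone 5 of the 21 passed (Spp1, Fn1, Fbn1, Col5a1 and Col3a1) beside 4.68% of all genes, and in smSocs3-KO 0 beside 2.45%. Without WT day 3 replicate 4, 10 passed in WT and 5 in smSocs3-KO (Spp1, Fbn1, Col5a1, Vcan and Nid1), beside 15.9% and 8.42% of all genes.

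Transcription factors of the AP-1, ETS, RUNX, NF-kappaB, C/EBP and STAT families, which regulate metalloproteinase genes in other settings, formed a list of 16 with 14 tested. Of these 4 rose and 2 fell on average, or 42.9% beside 22.7% of all genes, and the median log2 difference was 0.11. Junb, an AP-1 subunit, rose by 1.81 (limma, adjusted p = 0.0135), while Jund fell by 0.56 (adjusted p = 0.0217), and Fos (0.96, adjusted p = 0.236) and Jun (-0.59, adjusted p = 0.221) did not pass. The ETS factors Etv4 and Etv5 rose by 0.85 and 0.66, and Cebpb by 0.61. Within genotypes 0 of the 14 passed in WT and 1, Cebpb, in smSocs3-KO, beside 4.68% and 2.45% of all genes. Its log2 response was 0.07 in WT and 1.14 in smSocs3-KO (limma, adjusted p = 0.858 and 0.0372). With slide as a block the latter did not pass (limma, adjusted p = 0.0612), and the interaction did not pass (limma, adjusted p = 0.791). Without WT day 3 replicate 4, 2 rose and 1 fell in WT and 2 rose in smSocs3-KO. Cebpb was also 1.28 higher in smSocs3-KO than in WT at day 3 (limma, adjusted p = 0.0297) and was the 1 factor to pass there, beside 1.11% of all genes. With slide as a block, where a single array links the genotypes, the difference was 1.78, and that fit cannot decide whether the call holds. Stat3 had an averaged log2 difference of 0.45 that did not pass (limma, adjusted p = 0.0791), and without WT day 3 replicate 4 it was 0.52 and passed (limma, adjusted p = 0.048).

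Markers of cell types of the vessel wall were counted in the same fit, on the averaged response, in which 22.7% of all genes passed. Of 8 macrophage markers 6 rose on average (median log2 difference 1.14), although their summed level overlapped between the groups, with 194 to 240 before and 164 to 281 after challenge in WT and 143 to 334 and 178 to 218 in smSocs3-KO. Of 8 neutrophil markers 6 were tested and 2 rose on average (median log2 difference 1.503 over those tested). Their summed level was 299 to 388 before and 221 to 386 after challenge in WT and 189 to 415 and 196 to 232 in smSocs3-KO, and Cxcr2 and Ngp were not well above background in any whole group. Of 6 fibroblast markers 1 rose and 1 fell, and their summed level was 495 to 569, 395 to 515, 519 to 521 and 513 to 881 in the same order of groups. Of 8 smooth muscle markers 3 fell, of 5 tested lymphocyte markers 1 fell, and 0 of 6 endothelial, 0 of 5 adipocyte, 0 of 4 mesothelial and 0 of 2 tested adrenal markers passed. Of 6 proliferation genes all 6 rose, and their summed level in WT at day 3 ranged from 8.16 to 60.7. The part of these markers in the changes of the metalloproteinases and inhibitors was not tested.

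For each member well above background on all 12 arrays, the genes with the most similar pattern were sought among 19524. They were named by the 2 highest Pearson correlations. They were Myo7a (r = 0.99) and Arpc1b (0.98) for Timp1, Fbxo36 (0.97) and Ehd1 (0.97) for Mmp3, and Sfxn1 (0.97) and Polr3c (0.97) for Mmp19. For Mmp14 they were BC048355 (0.94) and Ubap2 (0.93), and for Mmp2 Chst15 (0.93) and Celf4 (0.92). For the brighter Timp2 probe they were an entry named only by its position (0.97) and DQ140166 (0.96). For Timp3 they were another entry named only by its position (0.92) and 2410018L13Rik (0.89). For Mmp2 the rank correlation with Chst15 was 0.63, below its Pearson value. These correlations are over 12 arrays that share the same 4 groups.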

How the data were processed

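Aortic RNA was hybridised to 12 one-colour arrays (Cy3). The authors deposited the scanner output, in which the processed signal is a background-subtracted intensity per spot made with Agilent Feature Extraction (10.7.1.1 per the file headers, 9.5.1.1 in the submitters' processing notes), and a table of intensity values that they had quantile normalized on a linear scale. Sample titles gave the groups and replicate numbers, the labels' protocol the doses and the methods the ages.

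Controls and 1383 spots marked as outliers were removed, log2 processed signals were averaged over the spots of each probe, and each array was scaled by its 75th percentile over these probes. Probes had to exceed the background by 13 times its SD on most of their spots on all 3 arrays of a group, and 32291 of 55681 did. Each gene was represented by its brightest such probe. Levels of different genes are not compared, and for Timp2 the ratio of its 2 probes within an array is described. Counts and calls of list genes without WT day 3 replicate 4 or with slide as a block were chosen after seeing the data. The 4 group means were fitted in limma 3.58.1 in R 4.3.3, p-values were adjusted by Benjamini-Hochberg over 22769 genes and called under 0.05. The scripts were tested on simulated data. The number of arrays limits the precision. The members, gene lists and markers were chosen with earlier results of these data known. Named genes were all members, genes of the lists that passed in a comparison and the 2 most like each member that was well above background on all arrays; the other list genes named were chosen after their values were seen. Alternatives covered background correction, normalization, the filter, the choice of probe, moderation of variances, the arrays in the fit, slide, replicate number, the threshold of the methods (p under 0.01, fold change over 4 or under 0.25) and each array left out. Probe positions and sequences are those of the array files (mm9). Upstream sequences are from RefSeq (GRCm38.p6) and were matched by symbol.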

Additional observations from a re-analysis of the deposited data

How the results depend on the processing

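The averaged challenge responses of Timp1, Mmp3 and Mmp19 kept their direction and passed in 22 of 22 alternatives, and that of Mmp9 in 21 of 21, since Mmp9 could not be tested when probes had to be well above background on all 12 arrays. Their log2 values ranged from 3.08 to 3.82 for Timp1, 1.78 to 2.19 for Mmp3, 0.91 to 1.80 for Mmp19 and -2.34 to -0.50 for Mmp9. At the threshold of the methods 1 member passed on average (Timp1) in place of 4. In WT, where 3 members passed, 0 passed with no filter on dim probes or with only the arrays of the groups compared, and 0 to 5 with an array left out. In smSocs3-KO, where 2 passed, 0 passed with no filter or with slide as a block, 1 with only the arrays compared or at the threshold of the methods, and 0 to 3 with an array left out. Between genotypes at day 3, 0 to 1 passed with an array left out, and before challenge and in the interaction 0 in every alternative.

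Of 48 log2 differences of members, the 9 that passed changed sign in 0 alternatives, and 14 of the others changed sign in at least 1, most of them close to 0. With the median of the array in place of its 75th percentile, which moved the median averaged challenge response of all genes from -0.05 to 0.16, the WT response of Mmp2 was 0.18 and the genotype differences before challenge of Timp2 and Timp3 were 0.038 and 0.026. With slide as a block, the genotype differences before challenge of Mmp9 and Timp2 were -0.41 and 0.013. The other Timp2 probe gave challenge responses of 0.40 in WT, 0.26 in smSocs3-KO and 0.33 on average, and the mean of both probes gave 0.05 in WT. The interaction was 0.11 for Mmp19 and 0.10 for Timp2 after normexp background correction. After quantile normalization it was 0.041 for Timp1 and 0.11 for Timp2, and with the values the authors normalized it was 0.038 and 0.11. With an array left out, the WT response of Mmp2 ranged from -0.15 to 0.071 and the smSocs3-KO response of Mmp14 from -0.048 to 0.26, while the genotype differences before challenge ranged from -0.011 to 0.21 for Mmp2 and from -0.088 to 0.15 for Mmp14. At day 3 that of Timp1 ranged from -0.036 to 1.46. The interaction ranged from -0.53 to 0.23 for Mmp19, -1.22 to 0.27 for Timp1 and -0.33 to 0.043 for Timp2. The cause of these changes was not tested.

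Groups share some replicate numbers, and the deviations of 4 of 11 same-numbered pairs correlated above 0.1 (range -0.40 to 0.46). With no differently numbered pairs beside them, these values cannot show whether the numbers pair the samples. The main fit used no pairing. With a replicate block as a random term, 2 members passed in WT, 2 in smSocs3-KO and 4 on average, and 0 in the other 3 comparisons. Signal over background limits Mmp9, Mmp12 and Mmp13.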
